A study of Helianthus annuus with 2 samples.

Results

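The regions described here are 239 windows of 1 Mb of the sunflower genome in which H3K4me3 peaks labelled 13 days after anthesis (DAA) outnumbered those labelled 28 DAA the most. H3K4me3 was mapped by ChIP-Seq in whole developing seeds of the high-oleic line CAS-9, with 1 library at 13 DAA, an early stage of fatty acid synthesis, and 1 at 28 DAA, a late stage. All plants were grown in chambers under the same conditions. Each library is represented by the list of peaks that the authors called on it, which holds 165079 peaks for 13 DAA and 123464 for 28 DAA as labelled. In the study's text the numbers of peaks stand with the stages exchanged, so every stage given here is the label of a list, and the direction of each difference rests on that label. The signal-to-noise metrics in the same text differ in direction. The normalized strand cross-correlation is higher at 28 DAA, and the relative strand cross-correlation is higher at 13 DAA. They therefore do not settle which stage a list belongs to. The stronger peaks are in the list labelled 28 DAA. If the labels were exchanged, every 13 DAA value below would belong to 28 DAA and the reverse. With 1 library per stage no spread between replicates could be computed, no test between the stages was made, and the intervals given below cover counting error only.

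Trimethylation of lysine 4 of histone H3 is laid down in plants mainly around the start of genes that are transcribed or ready to be transcribed. In large plant genomes such as that of sunflower, most of the sequence consists of transposable elements, and genes are usually denser towards the chromosome ends than in the middle. A count of H3K4me3 peaks over a megabase therefore depends both on how many marked promoters lie there and on how many weak intervals pass the threshold of the peak caller. Neither sequence nor gene models of this genome were used, so the windows are described by position and by the values of their peaks, and no gene is named.

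The 17 chromosomes held 2990 complete windows, with a mean of 54.2 summits per window at 13 DAA and 40.8 at 28 DAA. A summit is the position of the highest signal within a peak. The windows were ranked by their peak density, taken as the mean of the 2 counts after each was divided by the mean of its list, and the lowest and highest 10% were dropped, which left 2392 windows. The members were selected on the ratio of the summit counts, (13 DAA + 1)/(28 DAA + 1), as the top 10% of these. The counts therefore describe the choice and are not a finding. Among the 2392 ranked windows the ratio was 2 or more in 15.0%, and among the members in all 239. At the limit, 8 windows had the same ratio of 2.14, of which 4 were taken. The last members inside it held 59 and 27, 44 and 20, and 44 and 20 summits at 13 and 28 DAA, respectively. The first 3 windows outside it held 44 and 20 summits each.

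In the members, the count at 13 DAA was close to that of other windows, whereas the count at 28 DAA was low. At 13 DAA the members held between 40 and 79 summits, with a median of 51 and a mean of 52.3 ± 8.21 (SD over 239 windows). The 2153 other ranked windows held a mean of 53.9 ± 10.9. At 28 DAA the members held between 6 and 35 summits, with a median of 20 and a mean of 20.3 ± 4.45, against 41.2 ± 12.8 in the other ranked windows. All 239 members lay below the mean of the list labelled 28 DAA, but only 80 lay above the mean of the list labelled 13 DAA. A name such as windows with an excess of 13 DAA peaks is thus not borne out by the counts themselves, which show windows with few 28 DAA peaks. The median ratio was 2.41 in the members (quartiles 2.27 and 2.73) and 1.34 in the other ranked windows.

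**Figure D1:**
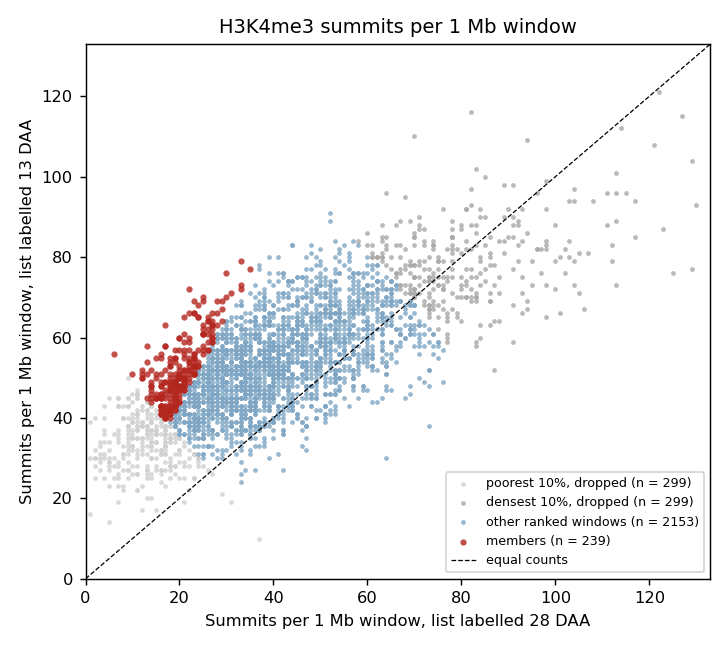
Each point is a 1 Mb window, with its summits at 28 DAA on the x axis and those at 13 DAA on the y axis, and the dashed line marks equal counts. The 239 members lie at 6 to 35 summits at 28 DAA and at 40 to 79 summits at 13 DAA, on the left edge of the ranked windows.

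Of all summits in the members, 12511 of 17352 belonged to the list labelled 13 DAA (72.1%, 95% Wilson interval 71.4 to 72.8%), against 56.7% in the other ranked windows. For a single window the precision is limited by its 57 to 112 summits. In 228 members the 95% Wilson interval of this share lay above the share over all windows, compared with 11.1% of the ranked windows. Since the rule used these counts, the agreement of the members in this respect follows from their choice.

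The window with the highest ratio, 8.14, lay on chromosome 5 from 26000001 to 27000000, with 56 summits at 13 DAA and 6 at 28 DAA. The window before it held 61 and 61 summits and the window after it 55 and 50, so among these windows the count at 28 DAA was low in the middle one alone, while the count at 13 DAA was nearly level across all of them. Its longest stretch without a summit at 28 DAA measured 561 kb and contained 33 of the summits at 13 DAA. The peak with the highest fold enrichment in this window was a 28 DAA peak at 26790759 to 26791238, which was enriched 13.3-fold and had 81 fragments at its summit. The fold enrichment is the ratio of the fragments at the summit to those expected from the local background. The highest one at 13 DAA was 6.45, with 19 fragments, from 26153994 to 26154163. Only 2 of the 56 peaks labelled 13 DAA overlapped a peak labelled 28 DAA.

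The other 9 windows with the highest ratios, between 3.56 and 4.73, lay on chromosomes 1, 2, 5, 7, 9, 10, 15 and 17. The window on chromosome 5 from 77000001 to 78000000 held 51 and 10 summits at 13 and 28 DAA. Its 28 DAA peak with the highest fold enrichment (77296963 to 77297349, 113 fragments) was enriched 20.1-fold. On chromosome 15, the window from 90000001 to 91000000 held 58 and 13 summits. There the highest fold enrichments of both lists were alike, 10.3 and 10.3, and the summits of these peaks lay 23.2 kb apart. On chromosome 10, from 147000001 to 148000000, the counts were 52 and 12. On chromosome 7, from 32000001 to 33000000, they were 51 and 12, and the windows on both sides held 53 and 42 summits at 28 DAA. The surroundings of these windows were thus not alike. The windows beginning at 33000001 on chromosome 1 and at 90000001 on chromosome 9 had a member on both sides, whereas those on chromosomes 7 and 15 had none.

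**Figure D2:**
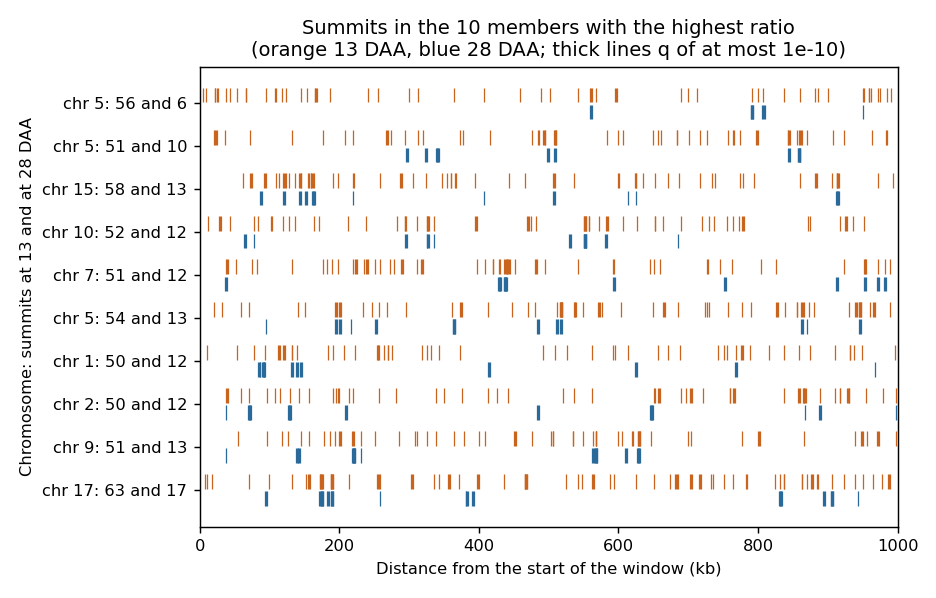
The lines mark the summits in the 10 members with the highest ratio by their distance from the start of the window in kb, with 13 DAA in orange above and 28 DAA in blue below, and thick lines where the q-value does not exceed 1e-10. The summits at 13 DAA spread over the whole window, while the 6 to 17 summits at 28 DAA leave a longest empty stretch of 268 to 561 kb.

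The members with the most summits at 13 DAA were on chromosome 5 from 101000001 to 102000000 (79 and 33 summits), on chromosome 16 from 151000001 to 152000000 (77 and 35) and on chromosome 13 from 152000001 to 153000000 (76 and 30). All of these counts at 28 DAA still lay below the mean of that list. Those with the fewest summits at 28 DAA were the window of 6 summits on chromosome 5, the window of 10 on the same chromosome and the window of 12 on chromosome 10 given above.

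The strength of the peaks gave another picture than their number. The q-value is the p-value of a peak corrected for the number of places tested, and the largest one was 0.000999 at 13 DAA and 0.000881 at 28 DAA. Restricted to peaks whose q-value did not exceed 1e-10, the members held 10.4 ± 4.05 summits per window at 13 DAA and 15.0 ± 3.84 at 28 DAA, so the order of the lists turned round. It turned round in the other ranked windows as well, from means of 53.9 and 41.2 to 13.3 and 31.3 at 13 and 28 DAA. At this limit, 22 of the 239 members still had more summits at 13 DAA, against 1.13% of the ranked windows. The share of the list labelled 13 DAA among these summits was 40.9% (39.6 to 42.1%) in the members and 29.9% (29.6 to 30.2%) in the other ranked windows. These summits are a subset of those that chose the windows, so the order of the shares follows from the choice.

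By strength, the count at 28 DAA in the members was low in every class of q-values. Relative to the other ranked windows it was 0.486 times for q-values above 1e-05, 0.535 times between 1e-05 and 1e-10, 0.453 times between 1e-10 and 1e-20, and 0.498 times at 1e-20 or less. The classes add up to the counts that the rule used, so a low 28 DAA count over them follows from the choice. At 13 DAA the weakest class held 4.96 summits per member and 4.35 per other window, and the ratio was 1.02, 0.805 and 0.609 in the stronger classes. Weak 13 DAA peaks were thus about as frequent in the members as in the other ranked windows and strong ones less frequent. Peaks with a q-value of at most 1e-10 made up 19.8% of the 13 DAA peaks in the members and 24.7% in the other ranked windows. The windows dropped for their low density had 16.1%, so a low share of strong 13 DAA peaks was not particular to the members. In absolute terms, 37.0 of the 52.3 summits per member at 13 DAA had a q-value between 1e-05 and 1e-10, and only 1.12 had one of 1e-20 or less. At 28 DAA, 9.19 of the 20.3 summits were in the strongest class.

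**Figure D3:**
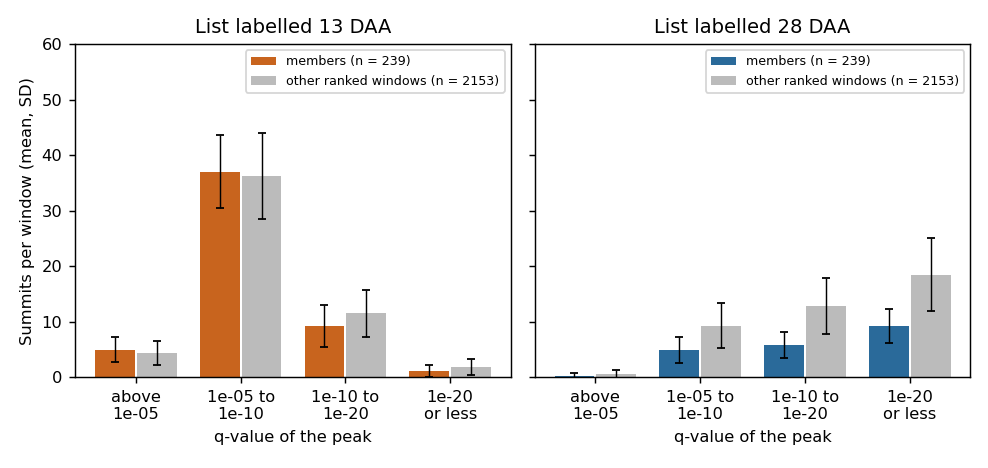
The bars give the mean number of summits per window by the q-value of the peak, in the list labelled 13 DAA on the left and 28 DAA on the right, with the SD over windows (239 members, 2153 other ranked windows). The members hold about as many weak summits at 13 DAA as the other windows, 37.0 against 36.2 between 1e-05 and 1e-10, and fewer summits at 28 DAA in each class, such as 9.19 against 18.5 at 1e-20 or less. The classes add up to the counts that the rule used.

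The single peaks that remained at 28 DAA were close to those of other windows in their medians, but wide intervals made up a larger share of them. Their median width was 285 bp (277 to 292 bp, n = 4841) in the members and 282 bp (281 to 283 bp, n = 88615) in the other ranked windows. Their median fold enrichment was 6.06 and 5.98, and the median number of fragments at the summit 41 and 42. Intervals wider than 1000 bp made up 4.75% of the 28 DAA peaks in the members (4.19 to 5.39%) and 3.36% in the other windows (3.25 to 3.48%). Per window the members held fewer of these wide intervals, 0.962 ± 0.984 against 1.38 ± 1.27. The denominator of the share is the 28 DAA count that the rule used, so the share is not independent of the choice. At 13 DAA the median width was 181 bp (180 to 183 bp, n = 12511) and 187 bp (186 to 187 bp, n = 116009), and the median fold enrichment 4.99 (4.96 to 5.02) and 5.16 (5.15 to 5.16). The peaks of a window share their surroundings and their library, so these intervals are too narrow for a comparison of windows.

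The local background, the number of fragments expected at a summit from its surroundings, was close to that of other windows at 13 DAA and lower in the members at 28 DAA. At 13 DAA its median was 2.73 fragments in the members (2.72 to 2.76) and 2.69 in the other ranked windows (2.69 to 2.71). At 28 DAA it was 5.39 (5.20 to 5.68) and 6.17 (6.10 to 6.21). The ranked windows with the lowest ratio had 5.67 (5.57 to 5.80) at 28 DAA, and the windows dropped for their low density 3.82 (3.67 to 4.04). A lower background at 28 DAA was thus not particular to the members. The lowest background of the list labelled 28 DAA, 2.30 fragments, applied to 16.2% of the 28 DAA peaks in the members and to 12.6% of those in the other windows. Its part in the number of peaks called was not tested.

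The highest fold enrichments were found at 28 DAA in the members as in the other windows. The peak with the highest fold enrichment of either list was labelled 28 DAA in 230 of the 239 members and in 96.2% of the ranked windows. Over all members, the 28 DAA peaks with the highest fold enrichment lay on chromosomes 13 and 4. Those on chromosome 13 were at 63629160 to 63629475 (27.1, 143 fragments) and at 22809691 to 22810071 (25.8, 151 fragments). That on chromosome 4 was at 92062108 to 92062495 (25.4, 108 fragments). The 13 DAA peaks with the highest fold enrichment lay on chromosomes 7, 2 and 13. They were at 52005980 to 52006276 (16.8, 56 fragments), 43434772 to 43435135 (15.7, 51 fragments) and 31920525 to 31920805 (14.8, 45 fragments), in this order. All of these overlapped a peak of the other list. The widest interval at 28 DAA measured 2615 bp, on chromosome 12 from 103435847 to 103438461, and the widest at 13 DAA 1357 bp, on chromosome 10 from 34969735 to 34971091. The latter overlapped a wide interval at 28 DAA, of 2075 bp, at 34969063 to 34971137.

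In terms of length, the peaks at 13 DAA covered 11.1 ± 2.03 kb of a member and those at 28 DAA 7.95 ± 2.25 kb. In the other ranked windows the order was the opposite, with 11.9 ± 2.75 kb and 15.3 ± 4.94 kb. More length was covered at 28 DAA in 73.1% of the ranked windows, but in only 7 of the 239 members. Since covered length moves with the number of peaks and the median widths were alike, this also follows from the choice.

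The 13 DAA peaks of the members were shared less often than those of other windows, and the 28 DAA peaks more often. Of the 13 DAA peaks, 1964 of 12511 overlapped a 28 DAA peak by at least 1 bp (15.7%, 15.1 to 16.3%), against 26.8% (26.5 to 27.0%) in the other ranked windows. A list with fewer intervals offers fewer chances to overlap, so this share moves with the counts that chose the windows. Conversely, 37.5% of the 28 DAA peaks in the members (36.1 to 38.9%) overlapped a 13 DAA peak, against 32.7% (32.4 to 33.1%). Of the windows dropped for their density, the densest had 36.5% (35.9 to 37.2%), close to the members, and the poorest 29.1% (27.7 to 30.5%). The denominator of this share is the 28 DAA count that the rule used, so it is not independent of the choice either. Counted per window, the members held 8.22 ± 3.29 shared and 44.1 ± 7.05 unshared 13 DAA peaks, and the other windows 14.4 ± 5.84 and 39.5 ± 7.97. At 28 DAA the members held 7.59 ± 2.92 shared and 12.7 ± 3.58 unshared peaks, against 13.5 ± 5.39 and 27.7 ± 9.20.

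Strong 13 DAA peaks were shared more often in both sets of windows. At a q-value of 1e-10 or less, 38.7% of them were shared in the members (36.8 to 40.6%, n = 2478) and 53.5% in the other ranked windows (52.9 to 54.03%, n = 28696). The windows dropped for their low density had 35.2% (32.9 to 37.5%, n = 1609), so the lower share was not particular to the members. It also moves with the number of 28 DAA peaks, which chose the windows. In the members, 84.3% of the 13 DAA peaks with a q-value of at most 1e-20 were shared (79.5 to 88.2%, n = 268), against 89.1% in the other ranked windows (88.1 to 90.1%, n = 3962). By their medians, shared 13 DAA peaks in the members reached 23 fragments and 236 bp in width, and unshared ones 18 fragments and 176 bp. Shared 28 DAA peaks had 60 fragments and 404 bp, and unshared ones 36 fragments and 250 bp. The strongest 13 DAA peaks of the members were thus mostly present in both lists, and 10547 of their 12511 peaks at 13 DAA were found in that list only.

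The summits of both lists were spread differently within the members. The longest stretch without a summit at 28 DAA had a median of 268 kb (range 129 to 661 kb), and the longest at 13 DAA a median of 92.9 kb (47.0 to 214 kb). The stretch was longer at 28 DAA in all 239 members and in 93.5% of the ranked windows. Stretches of at least 200 kb without a 28 DAA summit occurred in 199 members and in 837 of the 2153 other ranked windows, while stretches of this length without a 13 DAA summit occurred in 2 members. The longest stretch without a 28 DAA summit, whatever its length, held a median of 11 summits of the list labelled 13 DAA in the members (2 to 33). In the other ranked windows it held 7 (0 to 25). When each window was cut into 10 parts of 100 kb, a mean of 3.37 ± 1.30 parts had no 28 DAA summit in the members, against 1.52 ± 1.25 in the other windows. For 13 DAA the means were 0.117 and 0.168. A lower count makes empty stretches longer by itself. After peaks no more than 1000 bp apart were joined, the members held 47.4 ± 7.22 joined peaks at 13 DAA and 14.8 ± 3.45 at 28 DAA.

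The members were found on all chromosomes, in unequal shares. Chromosomes 5 and 10 held 26 members each and chromosome 17 held 22. As a share of the ranked windows, members were most frequent on chromosome 14 (20 of 124, 16.1%, 10.7 to 23.6%) and chromosome 5 (15.2%, 10.6 to 21.3%). They were least frequent on chromosome 16 (5 of 159, 3.14%, 1.35 to 7.15%) and chromosome 11 (6 of 149, 4.03%, 1.86 to 8.51%). These chromosomes were picked as the extremes of 17, so their intervals give no comparison between chromosomes.

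Along the chromosomes the members lay towards the middle, as did the windows dropped for their low density. The middle 50% of the chromosomes held 150 of the 239 members (62.8%, 56.5 to 68.6%) and 51.6% of the other ranked windows (49.4 to 53.7%). Of the 299 poorest windows it held 187 (62.5%, 56.9 to 67.8%), so this position was not particular to the members. With each chromosome cut into 10 equal parts, the share of ranked windows that were members was 4.74% in part 1 (2.67 to 8.29%), 14.9% in part 5 (11.1 to 19.8%) and 7.07% in part 10 (4.18 to 11.7%). The mean count of ranked windows at 13 DAA varied between 52.3 and 55.1 summits over the parts, whereas at 28 DAA it was 42.6 in part 1, 34.6 in part 5 and 45.1 in part 10. Positions of the centromeres were not used here. Within 10 Mb of a chromosome end there were 13 members (5.44%, 3.21 to 9.08%), against 9.66% of the other ranked windows (8.48 to 10.98%).

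**Figure D4:**
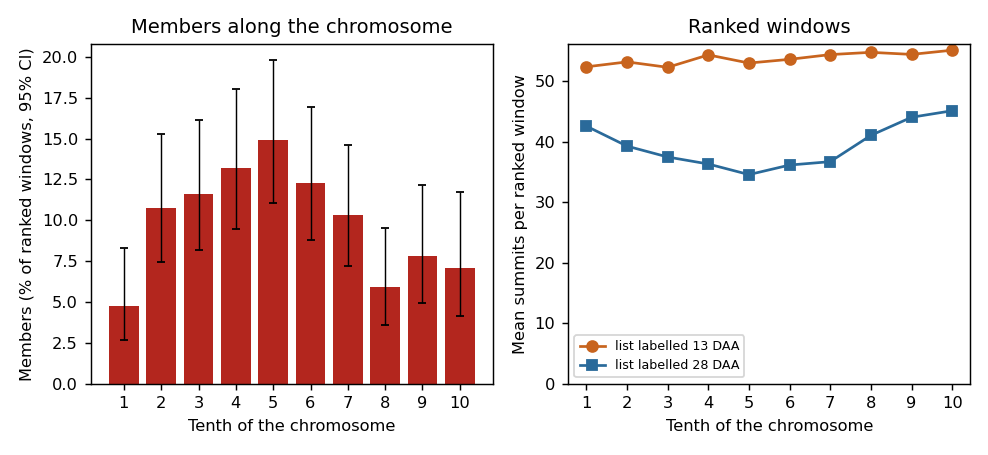
On the left, the bars give the share of ranked windows that are members in each of 10 equal parts of the chromosome, with 95% Wilson intervals, and on the right the lines give the mean number of summits per ranked window in both lists. Members are most frequent in part 5, 14.9%, where the mean count at 28 DAA is lowest, 34.6, while the count at 13 DAA stays between 52.3 and 55.1.

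The density is the mean of the same counts that the ratio used, so a choice of windows with few 28 DAA peaks lowers it by construction. As a description, members were most frequent among the ranked windows of low peak density. Of the 239 members, 155 fell in class 1 of 5 equal classes of ranked windows by density, where they made up 32.4%, then 49, 29 and 6 in the next classes and 0 of 478 in the densest, which allows a share of up to 0.797%. Below the ranked windows, among the 299 windows dropped for their low density, 195 reached the limiting ratio of 2.14 as well. These poorest windows held 33.4 ± 6.55 summits at 13 DAA and 12.9 ± 5.69 at 28 DAA, and 72.1% of their summits (71.4 to 72.9%) were labelled 13 DAA, the same as in the members. Their upper quartile at 13 DAA was 38 summits, below the lowest member at 40. None of the 299 densest windows reached the limit. The 239 ranked windows with the lowest ratio, taken as the opposite end, held 49.5 ± 9.47 summits at 13 DAA and 57.4 ± 10.6 at 28 DAA. Across both ends, the mean at 13 DAA differed by 1.06 times and that at 28 DAA by 2.83 times.

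Of the members, 59 touched another member (24.7%, 19.6 to 30.5%), and 13.7% of the other ranked windows touched a member (12.3 to 15.2%). Among the 299 windows dropped for their low density, 79 touched a member (26.4%, 21.7 to 31.7%). Touching a member was thus not particular to the members. The longest run was formed by 4 windows on chromosome 4 from 94000001 to 98000000. Its windows held 46, 47, 50 and 55 summits at 13 DAA, and 16, 18, 15 and 22 at 28 DAA. In addition there were 7 runs of 3 windows and 17 of 2. Among the runs of 3, the highest ratio of summed counts was found on chromosome 14 from 38000001 to 41000000, with 141 and 46 summits, followed by chromosome 1 from 32000001 to 35000000, with 138 and 48. The remaining 180 members stood alone. A window dropped for its low density was next to 80 members, and 110 members touched neither a member nor such a window.

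In the windows around the members the counts at 28 DAA were nearer to the mean. Relative to the mean of all windows, the members stood at 0.965 times at 13 DAA and 0.497 times at 28 DAA. The 383 windows next to them that were not members stood at 0.905 and 0.783 times, and those at 10 Mb at 0.942 and 0.869 times. The members were chosen for their own counts and the windows around them were not, so a step between them is produced by the choice, and whether it holds a local drop beyond that was not tested. Members were left out of the windows around them.

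**Figure D5:**
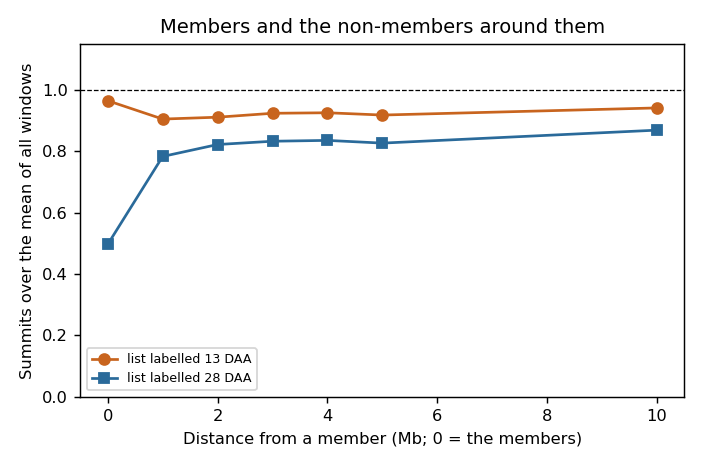
The lines give the mean number of summits relative to the mean of all windows (dashed line) in the members, at distance 0, and in non-members at 1 to 10 Mb from a member. At 28 DAA the value is 0.497 in the members and 0.783 in the adjacent windows, while at 13 DAA it stays between 0.905 and 0.965.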

How the data were processed

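H3K4me3 ChIP-Seq peak lists of 2 libraries were analyzed, 1 per stage. According to the methods, reads passed FASTX-Toolkit, were aligned by BWA-MEM against the genome of line XRQ and lost their duplicates in Picard, after which the authors ran MACS2. The sources used here do not say whether an input control was used. The fold enrichment (a ratio) and the −log10 p-values and q-values are those deposited by the authors. The deposited score repeats the q-value and was not used.

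Summits were counted in windows of 1 Mb from the chromosome start. Chromosome ends were approximated by the last peak end, and the partial window there was left out. Ties at the limit were ordered by the 13 DAA count, then by chromosome and position. Fragments at the summit and the local background follow from each peak's fold and p-value under the Poisson model of MACS2, which adds 1 to both (tolerance 0.001 on −log10 p, solved for 100% of the peaks). Shares have 95% Wilson intervals and medians 95% binomial order-statistic intervals. Positions are those of the lists, counted from 1. The functions were tested on simulated data.

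The members, groups and alternatives were chosen with earlier results of these data known. Windows named are the 10 with the highest ratio, the 3 with most 13 DAA and with fewest 28 DAA summits, the longest runs and those at the limit. Peaks named are the strongest and widest. Alternatives were a q-value of at most 1e-10, equal numbers of strongest peaks, other windows, no dropped windows, no added count and other overlap rules. Joined peaks were added after seeing the data. The work used pandas 2.3.3, scipy 1.17.1 and numpy 2.4.6 in Python 3.11.15, and figures were drawn in matplotlib 3.10.9.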

Additional observations from a re-analysis of the deposited data

Results flagged for a closer look

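Peaks outside the chromosomes were part of no window and were looked at separately. Unplaced sequences held 2122 peaks labelled 13 DAA and 932 labelled 28 DAA, so that 69.5% of them (67.8 to 71.1%) belonged to the list labelled 13 DAA, against 72.1% in the member windows and 56.7% in the other ranked windows. They drew attention because this signal lies in data that the comparisons of windows do not use. In the plastid genome the share was 57.1% (46.9 to 66.8%, 52 and 39 peaks) and in the mitochondrial genome 50.9% (43.2 to 58.6%, 81 and 78 peaks). The windows dropped for their low density had a share of 72.1% as well. Whether the unplaced sequences have any trait in common with the members was not tested.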

How the results depend on the processing

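Under the alternative settings listed with the methods, 24 values were the same, 26 moved beyond their interval (counts: beyond 1.5 times) and 2 reversed. With joined peaks, an alternative chosen after seeing the data, 3 were the same and 3 moved. The members held 57 to 112 summits of both lists each, which limits the precision of a single window. No paired analysis was possible because each stage has 1 library.

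With a q-value of at most 1e-10 in the same windows, the 13 DAA share of summits reversed to 40.9%, and with the rule itself applied at this limit to 46.2%. In the former case overlaps between the lists, both cut at this limit, became 33.1% and 21.8%. The 38.7% given above for 13 DAA was counted against the uncut 28 DAA list. Widths became 249 and 353 bp, fold enrichments 6.78 and 7.13 and local backgrounds 2.85 and 6.97 fragments at 13 and 28 DAA. With the rule itself applied at this limit, overlaps of the cut lists were 34.8% and 28.0%. Of the 239 members, 115 were chosen again (48.1% of either set). With equal numbers of strongest peaks the share was 64.8%, the overlaps 19.5% and 33.5%, and at 13 DAA the width 193 bp and the fold enrichment 5.42. With windows of 2 Mb there were 119 members, with a share of 69.2%, 37.0% touching another and 18.2% of 13 DAA peaks shared. With no window dropped these were 76.6%, 44.8% and 11.98%. With 50% of both intervals the overlaps were 7.75% and 20.02%. Counting a peak as shared by its summit gave 14.7% and 32.7%. With joined peaks the share was 71.1%, members in the middle 69.0% and shared 28 DAA peaks 35.7%, and 159 members were chosen again. Fewer peaks and stricter overlaps follow from the alternatives' construction. The cause of the other shifts was not tested.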
